A study of Mus musculus with 16 samples.

Results

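Genes of hypertrophic chondrocytes and osteoblasts are described here: Runx2, Sp7, Mef2c, Col10a1, Alpl, Phex, Ibsp, Spp1, Bglap and Dmp1. These 10 were chosen by gene name from 49315 genes in the deposited table, and each name matched 1 row. Endochondral bone forms through a cartilage model whose chondrocytes enlarge, secrete type X collagen and are replaced by osteoblasts. The transcription factors Runx2, Mef2c and Sp7 (osterix) drive this programme, tissue-nonspecific alkaline phosphatase (Alpl) removes the mineralization inhibitor pyrophosphate, and bone sialoprotein, osteopontin, osteocalcin and dentin matrix protein are laid down in the mineralizing matrix. In the intervertebral disc the same genes are followed because cartilage calcification and ossification accompany degeneration.

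Levels of the 10 genes were measured by bulk RNA sequencing in discs of 16 mice, with 4 tail discs pooled per animal. The discs were cut away from the cartilage endplate, where hypertrophic chondrocytes lie, so how much endplate each sample holds is not known. Discs were intact or injured, in mice carrying the Adam8EQ allele (4 intact and 5 injured mice, called mutants here) or labelled wild type (3 intact and 4 injured mice). The title of the series names DBA, an inbred strain, as the comparison. The kind of injury, the time after it, and the age and sex of the mice are not given in the sources used here, nor is it stated what the EQ allele does to the protease Adam8. Mutant libraries carry names starting with A8 (2 intact and 2 injured mice) or M (2 intact and 3 injured mice), and wild-type names start with D, so that names and genotype cannot be told apart.

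Levels are in TPM, a unit that takes account of transcript length and sequencing depth and so allows comparison between genes. Changes are differences in mean log2(TPM + 1), a scale on which 1 is a doubling of a well expressed gene and which understates changes of low genes. They were tested with limma over the 24188 genes that reached 1 TPM in at least 3 libraries, and a change was called at a Benjamini-Hochberg adjusted p under 0.05. Of the 10 genes, 9 passed this filter and Dmp1 did not. In bulk tissue, fewer cells of a type and less RNA per cell cannot be told apart.

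With injury in mutants, Alpl, Spp1 and Col10a1 fell and Runx2 rose, while 5 tested members did not pass the threshold. In the wild type none of the 9 passed, but the injured mice were unlike each other. Summed macrophage markers were 157 and 193 TPM in injured wild-type mice 1 and 2, and 1303 and 700 TPM in mice 3 and 4. Summed neutrophil markers were 10.9 and 10.8 TPM in mice 1 and 2, and 181 and 136 TPM in mice 3 and 4. The wild-type changes average over these mice, so the lack of calls does not show that wild-type discs responded little. Injured mutants were also unlike each other, with macrophage sums of 335 to 1904 TPM and neutrophil sums of 16.5 to 925 TPM. The part of the spread between mice in either result was not tested. The share of all tested genes called was 30.8% for injury in mutants and 0.116% for injury in the wild type, so 4 of 9 members called in mutants stands near the background of that comparison, where 13.1% of genes rose and 17.7% fell (1 and 3 of the 9 members). The median change of the 9 members was -0.65 in mutants, against -0.08 over all tested genes, and -0.06 in the wild type, against 0.01. The tissue carried the markers of disc: Acan lay between 2426 and 7024 TPM, Col2a1 between 658 and 9312 TPM and the notochordal factor T (brachyury) between 21.5 and 3370 TPM. Shh stayed below 1 TPM in all 16 libraries. Of the 11 tested disc markers, 7 fell with injury in mutants, and the sum of all 12 was 16138 to 18682 TPM in intact and 4933 to 14776 TPM in injured mutants. The part of this fall in the changes of the members was not tested.

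**Figure D1:**
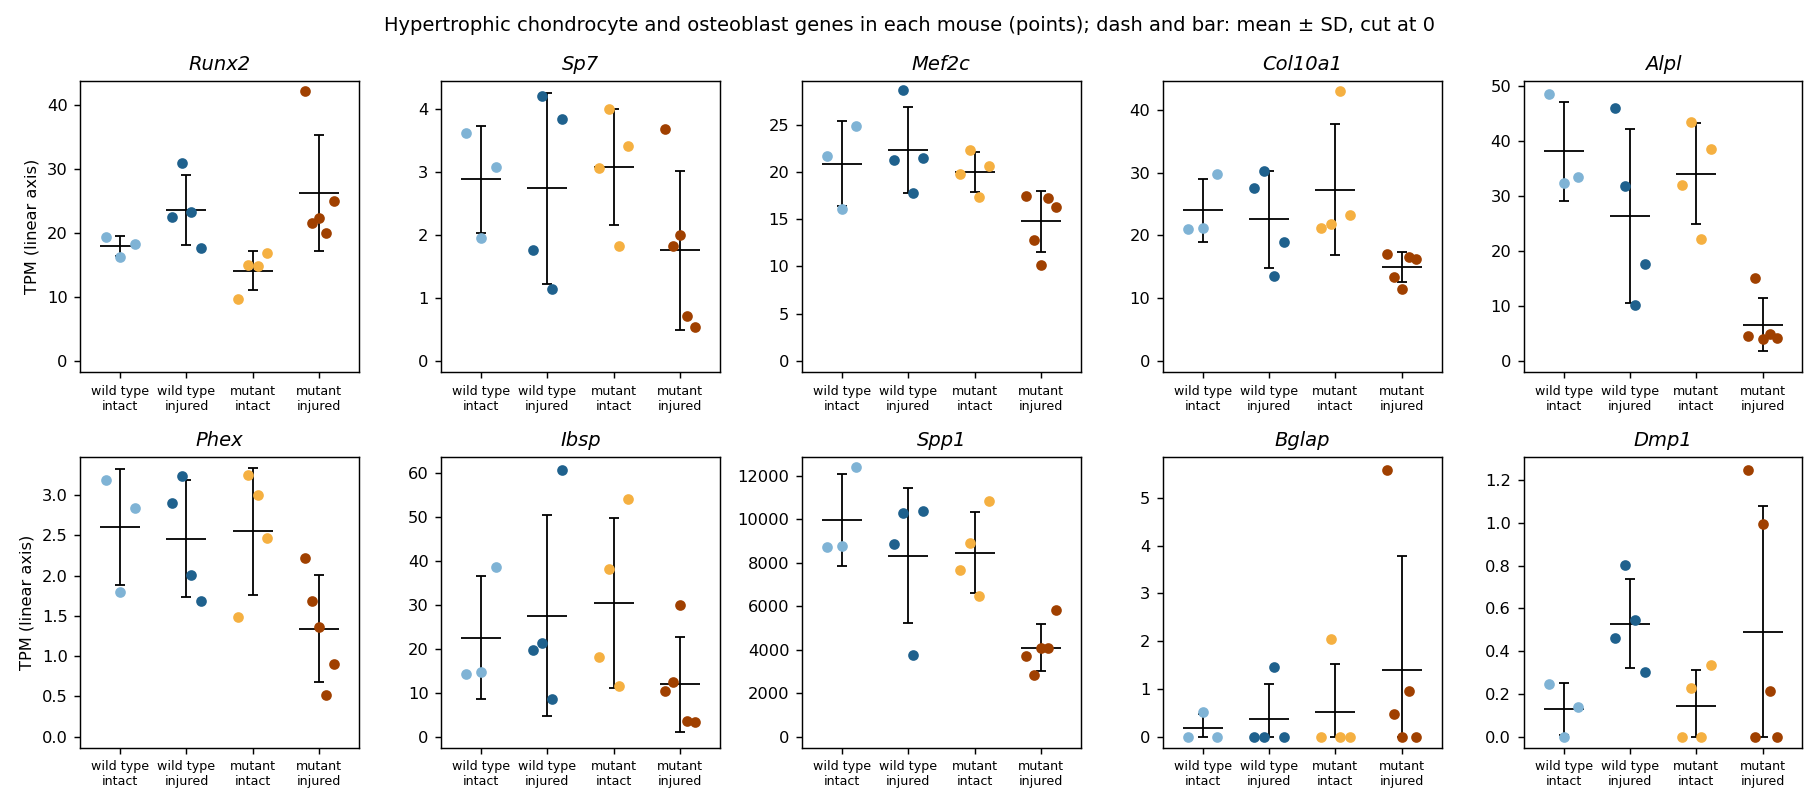
TPM of the 10 genes in each of the 16 mice, on linear axes of different range, with points for mice and a dash and bar for the group mean and SD. Alpl in injured mutants lies between 3.95 and 15.1 TPM, below all 4 intact mutants (22.1 to 43.4 TPM). In that comparison 27.2% of tested genes are without overlap, in either direction. Bglap is at 0 in 10 of 16 mice, with 1 injured mutant at 5.59 TPM, and Dmp1 stays at or below 1.25 TPM.

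The levels spanned a wide range. Spp1 (osteopontin, a phosphorylated matrix protein that binds cells and mineral) averaged 7340 TPM over the 16 libraries, rank 11 of 24188 tested genes and 0.734% of all TPM. Next came 5 members near each other, with means of 24.3 TPM for Alpl, 22.4 for Ibsp, 21.6 for Col10a1, 21.0 for Runx2 and 19.1 for Mef2c. Sp7 and Phex averaged 2.54 and 2.16 TPM, and Bglap and Dmp1 0.689 and 0.345 TPM. The deposited levels thus showed abundant osteopontin transcript with almost no osteocalcin transcript. How reads shared by Bglap and its near copies were counted is not given in the sources used here.

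The 4 members called for injury in mutants are shown by sequence: the 250 bases before their annotated starts show which letters these promoters carry. They come from RefSeq on GRCm38.p6, 5′ to 3′ on the strand of the gene: Runx2 at chr17:44814628-44814877 (minus), Col10a1 at chr10:34389731-34389980 (plus), Alpl at chr4:137796385-137796634 (minus) and Spp1 at chr5:104434861-104435110 (plus). Capitals mark matches to TGTGGT, the core of sites for Runx proteins, or to GGGCGG, a GC box that Sp-family factors bind, on either strand.
Runx2: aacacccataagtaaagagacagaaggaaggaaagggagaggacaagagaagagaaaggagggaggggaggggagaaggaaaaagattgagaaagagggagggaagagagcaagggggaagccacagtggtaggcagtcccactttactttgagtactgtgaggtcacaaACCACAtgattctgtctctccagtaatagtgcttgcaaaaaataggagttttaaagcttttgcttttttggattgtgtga
Col10a1: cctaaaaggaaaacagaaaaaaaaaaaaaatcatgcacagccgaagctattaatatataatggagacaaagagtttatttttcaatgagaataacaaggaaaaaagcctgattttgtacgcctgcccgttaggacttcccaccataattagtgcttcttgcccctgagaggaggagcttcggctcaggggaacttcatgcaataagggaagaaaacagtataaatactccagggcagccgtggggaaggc
Alpl: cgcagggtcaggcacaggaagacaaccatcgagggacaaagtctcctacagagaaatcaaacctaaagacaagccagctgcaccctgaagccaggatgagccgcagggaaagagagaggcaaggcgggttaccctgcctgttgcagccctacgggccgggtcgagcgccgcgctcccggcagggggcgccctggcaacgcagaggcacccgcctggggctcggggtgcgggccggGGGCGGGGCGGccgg
Spp1: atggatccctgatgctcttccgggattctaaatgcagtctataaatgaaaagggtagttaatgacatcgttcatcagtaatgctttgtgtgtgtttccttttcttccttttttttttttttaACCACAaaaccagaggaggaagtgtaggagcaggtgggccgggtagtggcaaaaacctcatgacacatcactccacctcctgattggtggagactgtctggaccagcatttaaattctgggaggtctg
Runx2 and Spp1 held 1 Runx core each, Alpl held 2 overlapping GC boxes and Col10a1 held neither. Among 32851 windows of the same length in the RefSeq table, 14.05% held the Runx core and 32.7% the GC box. Windows were found for 9 of the 10 members, and the other members with a Runx core were Bglap and Dmp1. Alpl, Spp1, Dmp1 and Mef2c have further annotated starts. A match is a description of these letters and not a binding site.

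Among the transcription factors, Runx2 was the member that rose. Runx2 (ENSMUSG00000039153, GRCm38 chromosome 17, 44495987 to 44814797, minus strand, protein coding) lay at 9.70, 15.0, 14.8 and 16.8 TPM in intact mutants 1 to 4 and at 42.2, 21.6, 22.4, 19.97 and 25.0 TPM in injured mutants 1 to 5. Every injured mutant was above every intact mutant, as was the case without overlap for 27.2% of tested genes in either direction. The group means were 14.1 ± 3.06 TPM (SD, n = 4) and 26.2 ± 9.09 TPM (SD, n = 5), a ratio of 1.86, and the change was 0.82 ± 0.22 (SE; adjusted limma p 0.01017). In the wild type it lay at 19.4, 16.2 and 18.3 TPM in intact mice 1 to 3 and at 22.5, 30.9, 23.3 and 17.7 TPM in injured mice 1 to 4. These ranges overlapped, through injured mouse 4, and the change was 0.35 ± 0.25 (SE; adjusted limma p 0.4581). Among mutants named A8 the change was 1.26 (adjusted limma p 0.03629) and among those named M it was 0.48 (adjusted limma p 0.183). Part of Runx2 lies within the span of Supt3 on the opposite strand, whose change in mutants was -0.13 ± 0.20 (SE; adjusted limma p 0.6751). The antisense gene Runx2os1 also overlaps Runx2 on the opposite strand, at 1.29 to 8.50 TPM. Over the 16 libraries the Pearson r of log2(TPM + 1) with Runx2 was 0.39 for Runx2os1 and 0.12 for Supt3. Use of strand in counting is not given in the sources used here.

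Sp7, which acts downstream of Runx2 in osteoblasts, did not follow it. It lay between 1.83 and 4.00 TPM in intact mutants and at 3.68, 1.82, 2.00, 0.717 and 0.539 TPM in injured mutants 1 to 5, ranges that overlapped. The change was -0.65 ± 0.36 (SE; adjusted limma p 0.1741), and -0.13 ± 0.41 in wild-type mice (SE; adjusted limma p 0.8963). Mef2c (chromosome 13, 83504034 to 83667080), a factor of hypertrophic chondrocytes that muscle, endothelium and B cells also use, changed by -0.43 ± 0.18 in mutants (SE; adjusted limma p 0.07695) and 0.09 ± 0.21 in wild-type mice (SE; adjusted limma p 0.8398). Neither change passed the threshold. All 16 libraries held Mef2c between 10.1 and 28.7 TPM. The summed level of 8 skeletal muscle markers ranged from 171 to 689 TPM in intact wild type, 79.4 to 196 in injured wild type, 105 to 128 in intact mutants and 24.3 to 537 in injured mutants. The part of muscle in Mef2c was not tested.

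Col10a1 (type X collagen, the defining matrix product of hypertrophic chondrocytes; ENSMUSG00000039462, chromosome 10, 34389981 to 34397085, plus strand) was present in intact discs of both genotypes. It lay at 21.2, 21.8, 43.1 and 23.3 TPM in intact mutants 1 to 4 and at 17.0, 13.4, 11.4, 16.5 and 16.2 TPM in injured mutants 1 to 5. The groups did not overlap, as for 27.2% of tested genes in either direction, but intact mouse 3 stood well above the other intact mutants. The change was -0.78 ± 0.26 (SE; adjusted limma p 0.02528). The means were 27.3 ± 10.52 TPM in the 4 intact and 14.9 ± 2.39 TPM in the 5 injured mice (SD). It did not pass without intact mutant 3 (-0.55, adjusted limma p 0.083) or without injured mutant 3 (-0.70, adjusted limma p 0.05971). In mutants named A8 it was -0.48 (adjusted limma p 0.3596) and in those named M it was -1.07 (adjusted limma p 0.1082).

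Wild-type Col10a1 lay at 21.0, 21.2 and 29.9 TPM in intact mice and at 27.5, 30.3, 13.5 and 19.0 TPM in injured mice 1 to 4. Injured mice 1 and 2 were within or above the intact range, and mice 3 and 4 were below it. The change was -0.13 ± 0.30 (SE; adjusted limma p 0.8314).

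The reading of Col10a1 is limited by a gene around it. The whole of Col10a1 lies within the span of Nt5dc1 (chromosome 10, 34288288 to 34418552, minus strand, a broadly expressed nucleotidase-domain gene), which lay between 28.4 and 46.2 TPM. Over the 16 libraries log2(TPM + 1) of the pair had a Pearson r of 0.86, and 0.79 for deviations from group means, the points sharing injury, genotype and depth. Nt5dc1 fell too in injured mutants, by 0.37 ± 0.12 (SE; adjusted limma p 0.02905). The ratio of Col10a1 to Nt5dc1 was 0.403 to 0.543 in injured mutants and 0.529 to 0.997 in intact mutants. How many Col10a1 reads came from unspliced Nt5dc1 RNA was not tested. The 5 genes whose pattern over the 16 libraries was most like that of Col10a1 were Mcee, Pim3, St3gal6, Crlf3 and Wwox (Pearson r 0.95 to 0.89, among 11937 genes with a symbol whose mean reached 5 TPM).

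Alpl showed the largest change of the members. This gene (ENSMUSG00000028766, chromosome 4, 137741733 to 137796384, minus strand) encodes the ectoenzyme that hydrolyses pyrophosphate at sites of mineralization. It lay at 32.0, 43.4, 22.1 and 38.6 TPM in intact mutants 1 to 4 and at 4.54, 15.1, 3.95, 4.87 and 4.20 TPM in injured mutants 1 to 5. All 5 injured mutants were below all 4 intact mutants, with 4 of the 5 under 5 TPM. In this comparison 27.2% of tested genes were without overlap, in either direction. The group mean was 5.21 times lower after injury, 6.53 ± 4.80 TPM (SD, n = 5) against 34.0 ± 9.25 TPM (SD, n = 4), and the change was -2.34 ± 0.44 (SE; adjusted limma p 0.001309). Among mutants named M it was -2.50 (adjusted limma p 0.03177) and among those named A8 it was -2.02 (adjusted limma p 0.06189).

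Wild-type Alpl lay at 48.5, 32.3 and 33.4 TPM in intact mice and at 45.9, 31.7, 10.2 and 17.6 TPM in injured mice 1 to 4. Injured mouse 1 was within the intact range, mouse 2 just below its lowest value and mice 3 and 4 further below. The change was -0.69 ± 0.50 (SE, 95% interval -1.79 to 0.41; adjusted limma p 0.4424).

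Phex, an endopeptidase of osteoblasts and osteocytes that restrains Fgf23, was low. It lay between 1.48 and 3.25 TPM in intact mutants and at 2.22, 1.68, 1.36, 0.520 and 0.897 TPM in injured mutants 1 to 5. The ranges overlapped, and the change of -0.62 ± 0.24 did not pass (SE; adjusted limma p 0.07888). Fgf23 itself reached at most 0.328 TPM and was listed at 0 in 15 of 16 libraries. Wild-type Phex changed by -0.06 ± 0.27 (SE; adjusted limma p 0.9308).

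**Figure D2:**
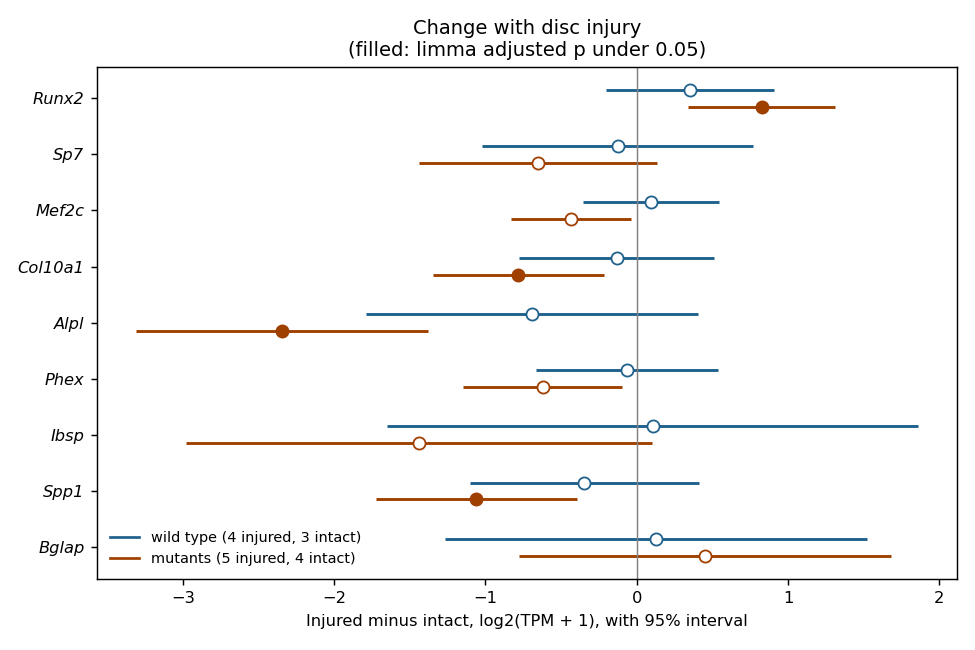
Change with injury in log2(TPM + 1) for the 9 tested genes, wild type in blue and mutants in brown, with 95% intervals and filled points where the adjusted limma p is under 0.05. Filled points are mutant Runx2 (0.82), Col10a1 (-0.78), Alpl (-2.34) and Spp1 (-1.06), and all wild-type intervals include 0. The intervals are not adjusted for the number of genes.

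Among the matrix phosphoproteins, Dmp1, Ibsp, Mepe and Spp1 lie in this order within 238.4 kb of chromosome 5 (104202613 to 104441050), all on the plus strand, and belong to 1 family. Their levels were far apart: Mepe reached at most 1.23 TPM and Dmp1 at most 1.25 TPM, while Ibsp ranged from 3.33 to 60.7 TPM and Spp1 from 2807 to 12388 TPM. Spp1 and Ibsp were above Dmp1 and Mepe in every library.

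Spp1 (ENSMUSG00000029304, chromosome 5, 104435118 to 104441050) lay at 7681, 8877, 6446 and 10826 TPM in intact mutants 1 to 4 and at 3725, 2807, 4063, 4062 and 5816 TPM in injured mutants 1 to 5. No injured mutant reached the lowest intact mutant, and 27.2% of tested genes were likewise without overlap, in either direction. The mean was 2.07 times lower, 4094 ± 1091 TPM (SD, n = 5) against 8458 ± 1865 TPM (SD, n = 4), and the change was -1.06 ± 0.31 (SE; adjusted limma p 0.03918). This call was close to the threshold: without intact wild-type mouse 1, intact mutant 1, 2 or 4, or injured mutant 1, 2, 3 or 4 the adjusted limma p was 0.0511 to 0.1091, the change staying between -1.10 and -0.93. Among mutants named A8 the change was -1.35 (adjusted limma p 0.1498), and among those named M it was -0.87 (adjusted limma p 0.3282).

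Wild-type Spp1 lay at 8728, 8746 and 12388 TPM in intact mice and at 8834, 10282, 3771 and 10386 TPM in injured mice 1 to 4. Only injured mouse 3 lay below the intact wild-type range. The change was -0.35 ± 0.35 (SE; adjusted limma p 0.6867). The record Gm42793 overlaps the start of Spp1 on the same strand, at 28.0 to 185 TPM, and could take some of its reads.

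Macrophages also make osteopontin, so their markers are set beside it. The summed level of 8 macrophage markers was 117 to 168 TPM in intact mutants and 335 to 1904 TPM in injured mutants, 115 to 135 TPM in intact wild type and 157 to 1303 TPM in injured wild type. With injury in mutants 6 of the 8 rose, against 13.1% of all tested genes, while Spp1 fell. Injured mutant 2 had the highest macrophage sum and the lowest Spp1 level of all 16 libraries. Other mice did not follow this order. Injured wild-type mouse 4, with a sum of 700 TPM, had the highest Spp1 level of the injured mice, 10386 TPM. Injured mutants 3 and 4 had sums of 421 and 1004 TPM with Spp1 at 4063 and 4062 TPM. The part of macrophages in the level of Spp1 was not tested. The genes most like Spp1 over the 16 libraries were Reck, Pcdh9, Cfap97, Mkx and Vwa8 (Pearson r 0.95 to 0.93).

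Ibsp (bone sialoprotein, a nucleator of mineral; ENSMUSG00000029306, chromosome 5, 104299171 to 104311469) varied more between mice than between groups. It lay at 14.3, 14.6 and 38.6 TPM in intact wild type, at 19.7, 21.3, 8.45 and 60.7 TPM in injured wild type, at 18.2, 38.0, 11.4 and 54.1 TPM in intact mutants and at 10.3, 12.5, 29.9, 3.5968 and 3.33 TPM in injured mutants. All 4 groups overlapped. The change with injury was -1.44 ± 0.71 in mutants (SE; adjusted limma p 0.1021) and 0.11 ± 0.81 in wild-type mice (SE; adjusted limma p 0.9547). It passed in mutants without injured mutant 3 (-1.85, adjusted limma p 0.03873). Over the 16 libraries the member most like Ibsp was Sp7, with a Pearson r of 0.77, and 0.69 for deviations from group means. Ibsp and Spp1 had an r of 0.62, and 0.41 for such deviations. Among all named genes of sufficient level, Fkbp3, Birc2, Tomm7, Kmt5b and Psme4 were nearest to Ibsp (Pearson r 0.84 to 0.76).

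Bglap (osteocalcin, the late osteoblast product; ENSMUSG00000074483, chromosome 3, 88383501 to 88384464) was listed at 0 in 10 of 16 libraries. Its highest value was 5.59 TPM in injured mutant 1, the deepest library, where the TPM and the exon length imply 20 reads. The other 5 libraries with a value held 0.476 to 2.04 TPM, or 1 to 4 implied reads. The changes of 0.45 ± 0.56 in mutants (SE; adjusted limma p 0.5511) and 0.13 ± 0.64 in wild-type mice (SE; adjusted limma p 0.9335) did not pass. Its near copy Bglap2 was listed at 0 in 13 libraries and also peaked in injured mutant 1, at 2.93 TPM. Reads can be split between the copies or left out of the count.

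Dmp1, which osteocytes and late osteoblasts make, lay between 0 and 1.25 TPM. The implied reads were 0 to 2 in intact wild type, 3 to 6 in injured wild type, 0 to 3 in intact mutants and 20, 0, 9, 2 and 0 in injured mutants 1 to 5. Injured mutant 1, which held the most Bglap reads, also held the most Dmp1 reads, 20, and the highest Mepe (1.23 TPM) and Sost (2.17 TPM) levels. Intact and injured wild-type mice did not overlap, as for 15.6% of tested genes, but each value there rests on at most 6 reads and Dmp1 was not tested.

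**Figure D3:**
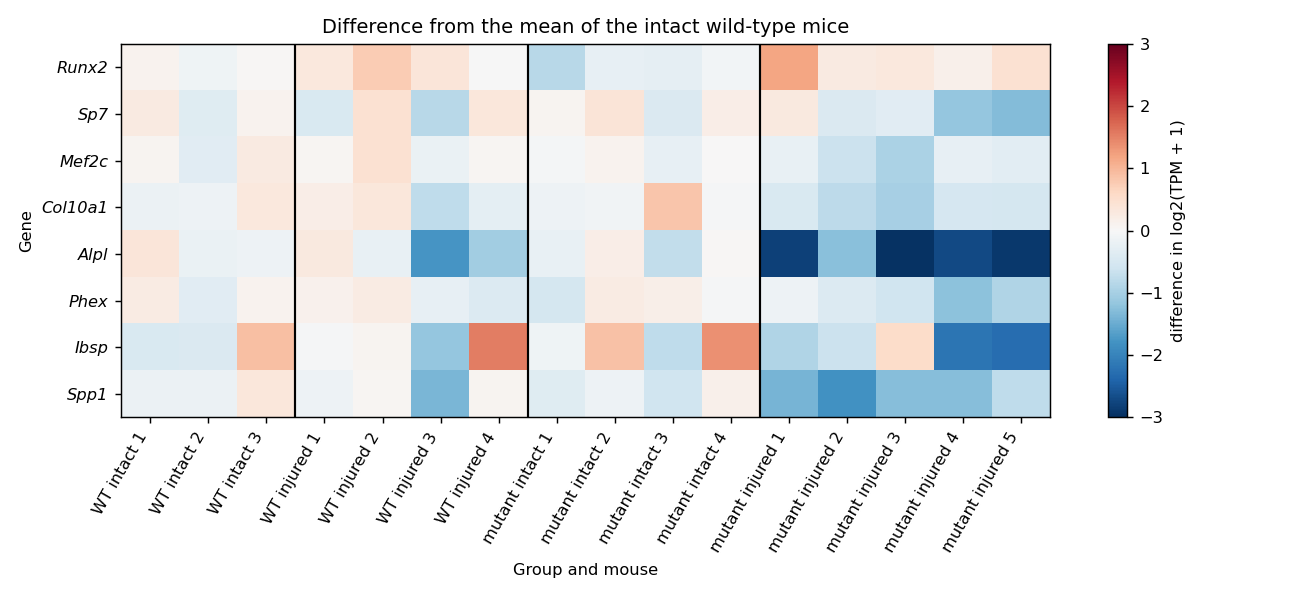
Difference of each mouse from the mean of the 3 intact wild-type mice in log2(TPM + 1), for the 8 members with a mean above 2 TPM, genes in rows and mice in columns, with black lines between groups. Alpl and Spp1 are both below that mean in all 5 injured mutants, and also in injured wild-type mouse 3, intact mutants 1 and 3 and intact wild-type mouse 2, while Runx2 is above it in all 5 injured mutants and in injured wild-type mice 1 to 3.

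Between genotypes, no member passed the threshold in intact discs. The changes, mutants minus wild type, ranged from -0.35 ± 0.25 for Runx2 to 0.34 ± 0.81 for Ibsp (SE; adjusted limma p 1 for all 9), and 0.0165% of all tested genes were called. In injured discs 1 member, Alpl, was called, against 0.918% of all tested genes in either direction and 0.728% lower in mutants. The difference, mutants minus wild type, was -1.83 ± 0.44 (SE; adjusted limma p 0.04898), with means of 6.53 TPM in injured mutants and 26.3 ± 15.8 TPM in injured wild type (SD, n = 4). The groups overlapped, since injured wild-type mouse 3 at 10.2 TPM lay below injured mutant 2 at 15.1 TPM. The call was lost in 23 of 29 alternative analyses, among them 13 of the 16 that left out 1 mouse, with adjusted limma p from 0.008069 to 0.2905. With only the mutants named A8 it was -1.33 (adjusted limma p 0.2905) and with those named M it was -2.16 (adjusted limma p 0.04213). Without injured wild-type mouse 3, in contrast, Alpl (-2.19, adjusted limma p 0.008069), Spp1 (-1.30, adjusted limma p 0.02947) and Mef2c were called. The number of all genes called also moved between these alternatives, so these calls are not read as a result about the members.

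The other members did not pass between injured genotypes. Mef2c was the member without overlap, at 10.1 to 17.4 TPM in injured mutants and 17.8 to 28.7 TPM in injured wild type, as 4.77% of tested genes were. Its difference was -0.57 ± 0.18 (SE; adjusted limma p 0.1073). Spp1 differed by -0.95 ± 0.31 (SE; adjusted limma p 0.1642), Phex by -0.59 ± 0.24 (SE; adjusted limma p 0.2148) and Col10a1 by -0.52 ± 0.26 (SE; adjusted limma p 0.2499). For Runx2 the difference was 0.12 ± 0.22 (SE; adjusted limma p 0.79).

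Whether injury acted differently in the genotypes was tested as the difference of the injury changes. None of the 9 members passed, and 0% of all tested genes were called by limma, with 1979 genes at an unadjusted p under 0.05 and 0 called by limma's voom on implied reads. For Alpl the changes differed by -1.65 ± 0.67 (SE, 95% interval -3.11 to -0.19, unadjusted p 0.01673 by limma over all genes, adjusted limma p 0.5292). For Spp1 they differed by -0.71 ± 0.46 (SE; adjusted limma p 0.763), for Col10a1 by -0.65 ± 0.39 (SE; adjusted limma p 0.673) and for Runx2 by 0.47 ± 0.34 (SE; adjusted limma p 0.7343). The calls made only in mutants are therefore not shown to be particular to them.

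Genes that work around the members were taken from 5 lists. With injury in mutants 13.1% of all tested genes rose and 17.7% fell, the background for each list count below. With injury in mutants, 3 of 11 tested osteogenic regulators rose and 2 fell. Runx3 rose by 2.43 ± 0.57 (SE; adjusted limma p 0.004317), Atf4, a stress-response factor also used by osteoblasts, by 1.62 ± 0.24 (SE; adjusted limma p 0.0004759), and Cbfb, the partner of Runx proteins, by 0.48 ± 0.11 (SE; adjusted limma p 0.006401). Dlx5, an activator of osteoblast genes, changed by -1.86 ± 0.62 (SE; adjusted limma p 0.02143), and Zfp521, a repressor of Runx2, by -0.57 ± 0.18 (SE; adjusted limma p 0.02136). Regulators grouped with Runx2 therefore moved both ways, and Runx3 is also made by lymphocytes.

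Of 7 tested growth plate signals 1 rose and 3 fell. The rise was that of Mmp13, the collagenase of hypertrophic cartilage, at 4.55 ± 1.35 (SE; adjusted limma p 0.01246), from 0.471 to 1.21 TPM in intact mutants to 10.2 to 398 TPM in injured mutants. Gli1, a target of hedgehog signalling, changed by -2.15 ± 0.24 (SE; adjusted limma p 0.0001526), Fgfr3 by -1.14 ± 0.39 (SE; adjusted limma p 0.02433) and the parathyroid hormone receptor Pth1r by -0.87 ± 0.31 (SE; adjusted limma p 0.0301). Ihh, the ligand of prehypertrophic chondrocytes, stayed between 0.1004 and 1.28 TPM, and Panx3 below 1 TPM. Mmp13 and Col10a1, both listed here for hypertrophic cartilage, thus moved in opposite directions in bulk tissue. Injured mutant 2 had both the highest Mmp13 level and the highest macrophage sum of all 16 libraries. Injured mutant 4, with a macrophage sum of 1004 TPM, had less Mmp13 than injured mutant 3, with 421 TPM. Which cells made Mmp13 was not tested, and the reading of Col10a1 is limited by Nt5dc1. Whether the 2 genes parted within hypertrophic chondrocytes was therefore not tested.

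Among 8 tested osteoblast matrix genes 1 rose and 3 fell. Osteomodulin (Omd) changed by -2.27 ± 0.49 (SE; adjusted limma p 0.002409), Sparc (osteonectin) by -1.03 ± 0.31 (SE; adjusted limma p 0.02701) and Kazald1 by -0.60 ± 0.14 (SE; adjusted limma p 0.005707), while Cthrc1 rose by 3.07 ± 0.84 (SE; adjusted limma p 0.008542). In the mineralization list 4 of 8 tested genes rose, against 13.1% of all tested genes, and none fell, and its median change was 0.66. Mgp, an inhibitor of cartilage calcification, rose by 2.12 ± 0.49 (SE; adjusted limma p 0.003647). Its mean was 187 ± 22.97 TPM in the 4 intact mutants and 1031 ± 676 TPM in the 5 injured ones (SD). Ank, which carries pyrophosphate out of the cell, rose by 1.45 ± 0.42 (SE; adjusted limma p 0.01199), Enpp1, which makes it, by 0.69 ± 0.23 (SE; adjusted limma p 0.02635), and the phosphate transporter Slc20a2 by 0.63 ± 0.17 (SE; adjusted limma p 0.01331). In injured mutant 2 Ank was 374 TPM, within the intact mutant range of 344 to 613 TPM. Enpp1 there, at 175 TPM, was below the lowest intact mutant (181 TPM). Mgp there, at 211 TPM, was just above the highest (199 TPM). Slc20a2 there, at 26.9 TPM, was above the intact range of 12.3 to 17.4 TPM.

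Of the 7 osteocyte genes only Pdpn and Irx5 passed the filter. Pdpn, which fibroblasts and macrophages also make, rose by 2.07 ± 0.73 (SE; adjusted limma p 0.02857), and Irx5 changed by -1.19 ± 0.31 (SE; adjusted limma p 0.007731). In the wild type 0 genes of these 5 lists were called for injury, against 0.116% of all tested genes. The changes there were 0.51 ± 0.56 for Mgp, 0.90 ± 0.48 for Ank, -0.55 ± 0.28 for Gli1 and 3.24 ± 1.54 for Mmp13 (SE; adjusted limma p 0.6155, 0.3102, 0.288 and 0.2598). Mmp13 lay at 0.958 and 5.40 TPM in injured wild-type mice 1 and 2, and at 196 and 104 TPM in mice 3 and 4. Between injured genotypes 2 tested genes of these lists, whose sizes are given above, were called, against 0.918% of all tested genes. This count is not read as a result about the lists. Atf4 was higher in mutants by 1.10 ± 0.24 (SE; adjusted limma p 0.03717), and Gli1 differed by -1.43 ± 0.24 (SE; adjusted limma p 0.02578). In intact discs and in the interaction 0 were called.

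**Figure D4:**
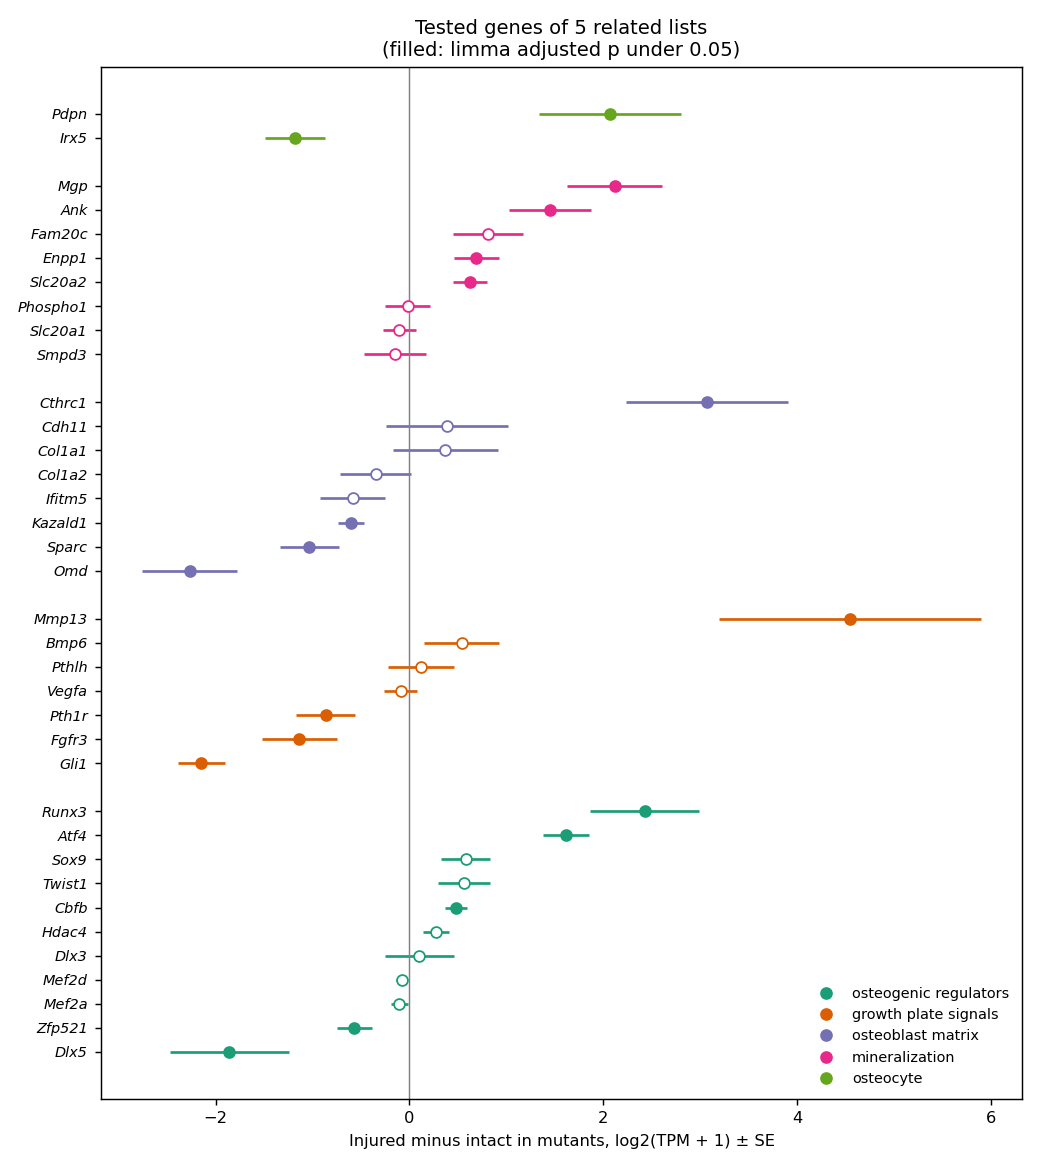
Change with injury in mutants, in log2(TPM + 1) with SE, for the tested genes of the 5 related lists, coloured by list and filled where the adjusted limma p is under 0.05. Mgp, Ank, Enpp1 and Slc20a2 lie to the right of 0, and Omd, Gli1 and Dlx5 to the left.

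Markers of other cells moved with injury in mutants beside the members. Of the tested markers 2 of 3 for osteoclasts, 3 of 6 for neutrophils and 1 of 6 for skeletal muscle rose, against 13.1% of all tested genes. For B cells 0 of 2, for endothelium 0 of 6 and for red cells 0 of 5 were called, against 30.8% in either direction. The summed osteoclast markers ranged from 76.9 to 91.9 TPM in intact mutants and from 130 to 264 TPM in injured mutants, most of it Ctsk, and Calcr stayed below 1 TPM in all libraries. Neutrophil sums were 5.40 to 10.8 TPM and 16.5 to 925 TPM, and endothelial sums 2.12 to 10.1 TPM and 10.9 to 68.7 TPM. The B-cell sums were 6.54 to 13.5 TPM and 7.49 to 23.5 TPM, with Ms4a1 and Pax5 below 1 TPM throughout, and the red cell sums 68.1 to 273 TPM and 184 to 1181 TPM. Their part in the changes of the members was not tested.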

How the data were processed

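RNA was extracted from tail discs, ribosomal RNA was depleted and libraries were made with a NEBNext kit, per the labels' protocols, although the labels also name polyA RNA. The authors deposited TPM values for 49315 genes in 16 libraries. GRCm38 and bcl2fastq 2.20 are named in the submitters' processing notes, and the aligner, counting method and annotation are not given in the sources used here. Every library is 1 mouse, so p-values rest on the spread between mice.

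Positions and exon lengths came from GENCODE M21 on GRCm38 (49056 of 49315 identifiers found), and promoters from RefSeq. Dividing TPM by the worth of 1 read at a gene's exon length put 94.1% to 94.9% of low values (under 20 reads) within 0.05 of a whole number. This gave 10199806 to 24850242 implied reads per library, approximations computed here. Changes were fitted on log2(TPM + 1) with limma 3.58.1 (R 4.3.3; moderated variances with a trend on level), 1 mean per group over all 16 libraries, after a filter of 1 TPM in 3 libraries. Intervals use the fit's ordinary standard errors and 12 residual degrees of freedom. The limma steps were also run, as a separate test, on simulated data with independent noise for each gene and library. Spread shared by genes within a mouse was not simulated. Other steps used Python 3.11.15.

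The alternatives were a pseudocount of 0.1, no filter, a mean of 5 TPM, 2 other scalings, no trend, library weights, only the groups compared, a replicate block, library names, leaving out each mouse and, chosen after seeing the data, limma's voom on implied reads. The members and gene lists were chosen with earlier results of these data known. The rule for naming genes took all members, the called genes of the 5 related lists (at most 4 per list by size), genes that bear on a member's reading, and the 5 genes most like Col10a1, Ibsp and Spp1. Nt5dc1, Supt3, Runx2os1, Gm42793 and genes named for low levels were added after their values were seen. Of the genes in these lists, 2 are not reported here and were left out of the lists.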

Additional observations from a re-analysis of the deposited data

Results flagged for a closer look

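In groups of 4 or 5 mice the highest and lowest values were compared with the rest by Dixon's criterion, 30 groups of values in all, of which chance flags about 1 in 20. There were 6 flags. Col10a1 in intact mutant 3, at 43.1 TPM, lay far above the other 3 mice of its group. Runx2 in injured mutant 1, at 42.2 TPM, and Alpl in injured mutant 2, at 15.1 TPM, lay far above the other 4 mice of theirs. Bglap was flagged in injured wild-type mouse 3 at 1.46 TPM, in intact mutant 2 at 2.04 TPM and in injured mutant 1 at 5.59 TPM, values that rest on 3, 4 and 20 implied reads. Without injured mutant 1 the Runx2 change with injury in mutants was 0.65, and without injured mutant 2 that of Alpl was -2.66, both still called by limma.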

How the results depend on the processing

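Injury in the wild type, genotype in intact discs and the interaction gave 0 called members under every alternative run. For injury in mutants the number called was 7 with library weights, 2 with the replicate block, 1 with mutants named A8 only, 1 with those named M only, and 3 to 4 with each mouse left out. Between injured genotypes it was 0 with a pseudocount of 0.1, no filter, median-of-ratios scaling, quantile normalization, no trend, only the groups compared, the replicate block, mutants named A8 only, the name covariate and voom, and 0 to 3 with each mouse left out. Calls over all genes also moved widely between alternatives, as given below, so these counts are not read as results about the members. The causes were not tested. In injured mutants Spp1 lost its call in 14 of 29 alternatives, Col10a1 in 5, Alpl in 1 and Runx2 in 1. The replicate numbers did not pair the mice: deviations from group means had r from -0.217 to 0.151 for same-numbered mice of different groups, and 3 of 16 libraries were closest to their own number. Over all genes, counts of calls ranged from 2 to 452 for injury in the wild type (28 as reported), 725 to 8559 in mutants (7438), 1 to 8 in intact discs (4), 2 to 2253 in injured discs (222) and 0 to 15 for the interaction (0).

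Changes of sign touched uncalled values. For genotype in intact discs, Phex was 0.028 with quantile normalization, 0.077 with the replicate block and 0.067 with M only, Col10a1 -0.14 and Mef2c 0.030 with A8 only, and Sp7 -0.11 and Bglap -0.20 with M only. Wild-type injury gave Col10a1 0.043 and Bglap -0.0049 with library weights, and Ibsp -0.013 and Phex 0.045 with the replicate block. Between injured genotypes Sp7 was 0.057 with A8 only, and Runx2 -0.047 and Bglap -0.00066 with M only. With each mouse left out, sign changes lay within these ranges. For injury in the wild type Col10a1 ranged from -0.29 to 0.081, Sp7 -0.32 to 0.11, Ibsp -0.37 to 0.56, Bglap -0.20 to 0.32, Phex -0.24 to 0.054 and Mef2c -0.077 to 0.22. For injury in mutants Bglap ranged from -0.017 to 0.85. For genotype in intact discs Col10a1 ranged from -0.10 to 0.29, Sp7 -0.12 to 0.23, Alpl -0.30 to 0.011, Ibsp -0.0069 to 0.79, Bglap -0.20 to 0.40, Phex -0.20 to 0.13 and Mef2c -0.21 to 0.089. For genotype in injured discs Runx2 ranged from -0.059 to 0.25. For the interaction Bglap ranged from -0.14 to 0.72. Most Bglap and Dmp1 values rest on few reads, so depth limits both.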
